A study of Homo sapiens with 12 samples.

Results

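Oxidative phosphorylation was followed through 103 genes of the 59191 features in the table, 13 encoded by the mitochondrial genome and 90 by the nucleus. They were chosen by a rule on symbols that used no values, though earlier results of these data were known. The rule took the protein-coding genes of the mitochondrial genome and nuclear genes with the symbols of respiratory complexes. These were complex I (NDUFA, NDUFB, NDUFC, NDUFS and NDUFV), complex II (SDHA to SDHD), complex III (UQCR), complex IV (COX4 to COX8) and the ATP synthase, complex V (ATP5). Sorted by symbol, the 2 genomes together gave 46 members for complex I, 4 for complex II, 10 for complex III, 20 for complex IV and 23 for complex V. NDUFA4 and NDUFA4L2 were thereby counted under complex I. The symbols also took in the read-through genes NDUFC2-KCTD14 and ATP5MF-PTCD1, and ATP5S, so not every member is an established subunit. The table holds 12 RNA sequencing libraries of Huh7, a widely used line of human liver cancer cells (hepatocellular carcinoma). There were 4 groups of 3 libraries: cells given disulfiram and thalidomide together (combination), disulfiram alone, thalidomide alone, and a solvent control. Disulfiram inhibits aldehyde dehydrogenases, and thalidomide redirects the cereblon ubiquitin ligase to other substrates. The sources used here give neither the unit of the doses nor the length of treatment. Nothing in the labels says that the 3 libraries of a group came from separate cultures, and the p-values below therefore rest on how far these particular libraries scatter.

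The respiratory chain passes electrons from NADH (complex I) and succinate (complex II) through ubiquinone to complex III, cytochrome c and complex IV, where oxygen is reduced. Complexes I, III and IV pump protons across the inner mitochondrial membrane, and the ATP synthase lets them back through a ring of c subunits whose rotation drives ATP formation. Complexes I, III, IV and V are mosaics of both genomes, whereas every complex II subunit is nuclear. Mitochondrial genes encode hydrophobic core subunits and are transcribed inside the organelle as long polycistronic RNAs that are cut into shorter ones. Overlapping genes, MT-ATP8 with MT-ATP6 and MT-ND4L with MT-ND4, stay on a shared mRNA. The 13 genes counted as mRNAs below are therefore not 13 separate RNAs.

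Values are TPM, a length-scaled share of all transcripts in a library, as the authors deposited them. Fold changes are differences of mean log2(TPM + 1), given ± SE, from 1 limma fit over all 12 libraries and 15352 genes, and a gene was called where its Benjamini-Hochberg adjusted p over all these genes was below 0.05. Read depth is not known from TPM. The number of genes at 1 TPM or more ran from 13693 to 15038 over the libraries. Libraries within each treated group differed in a way that went with GC content, as described below, and counts are also given without the second combination and the second disulfiram library. All 7 hepatocyte markers checked, including ALB and HNF4A, averaged at least 1 TPM in every group, with summed levels of 3426 to 4246 TPM in combination, 3823 to 3878 in disulfiram, 5122 to 6827 in thalidomide and 3965 to 6258 in control libraries. Of 8 leukocyte markers, CD14 and LYZ averaged at least 1 TPM in every group, and the 8 summed to 87.3 to 96.3 TPM in combination, 64.4 to 131 in disulfiram, 118 to 169 in thalidomide and 104 to 174 in control libraries, while PTPRC and CD3E stayed at or below 0.16 TPM in every library and MS4A1 was listed at 0. Of 5 endothelial markers 1 (PECAM1) and of 7 fibroblast markers 4 averaged at least 1 TPM in some group. The summed fibroblast markers were 60.5 to 86.0 TPM in combination, 56.4 to 71.3 in disulfiram, 55.2 to 84.4 in thalidomide and 71.1 to 83.7 in control libraries. The summed endothelial markers were 3.83 to 5.43 TPM in combination, 3.52 to 7.42 in disulfiram, 1.66 to 2.51 in thalidomide and 0.79 to 1.55 in control libraries, with CDH5, VWF, KDR and TEK at or below 0.59 TPM throughout.

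The mitochondrial mRNAs were among the most abundant transcripts of these cells. In control libraries their mean levels had a median of 6624 TPM and ran up to 25117 TPM for MT-ATP8, with MT-ND1 lowest at 1981 TPM. TPM is scaled by length, and genes on 1 shared mRNA differed in it. MT-ATP8 (207 bases) stood beside MT-ATP6 (681 bases) at 7903.5 TPM. MT-ND4L (297 bases) was at 10830 TPM and MT-ND4 (1378 bases) at 4762 TPM. What part gene length has in this ranking was not tested. The nuclear members had a median of 221 TPM, from 2.46 TPM for NDUFA4L2 to 1523 TPM for COX4I1, against a median of 8.28 TPM over all genes tested, and 58 nuclear members averaged at least 100 TPM. Filtering at a TPM of at least 1 in at least 3 libraries left 95 members, the 13 mitochondrial and 82 nuclear ones. The other 8 were COX4I2, COX6A2, COX6B2, COX7A1, COX7B2, COX8C, UQCRHL and ATP5MGL, which reached at most 0.52 TPM in any library. COX6A2, COX7A1, COX7B2 and COX8C were listed at 0 in all 12.

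The 13 mitochondrial mRNAs took 8.24%, 10.3% and 8.56% of the TPM total in combination libraries, 10.0%, 9.96% and 11.1% in disulfiram libraries, 10.7%, 10.9% and 10.2% in thalidomide libraries and 10.7%, 10.4% and 11.1% in control libraries. All 3 combination libraries lay below all 3 control libraries, by most in the first and the third. The summed share averaged 9.03 ± 1.11% with the combination, against 10.7 ± 0.312% in control libraries (SD, n = 3 each), while disulfiram alone (10.3 ± 0.627%) and thalidomide alone (10.6 ± 0.403%) overlapped the control range. The shares of the nuclear members together overlapped between groups: they took 2.66 ± 0.0360% with the combination, 2.60 ± 0.0961% with disulfiram, 2.76 ± 0.0694% with thalidomide and 2.66 ± 0.0728% in control libraries. The ratio of mitochondrial to nuclear sums was 3.10, 3.91 and 3.17 in combination libraries and 4.10, 3.96 and 4.03 in control libraries, so that the groups did not overlap but the second combination library came close. MT-ATP8 alone made up 20.8% of the mitochondrial sum on average with the combination and 23.4% in control libraries. These sums were not tested. In bulk libraries, fewer cells of one kind and less RNA per cell cannot be told apart.

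**Figure D1:**
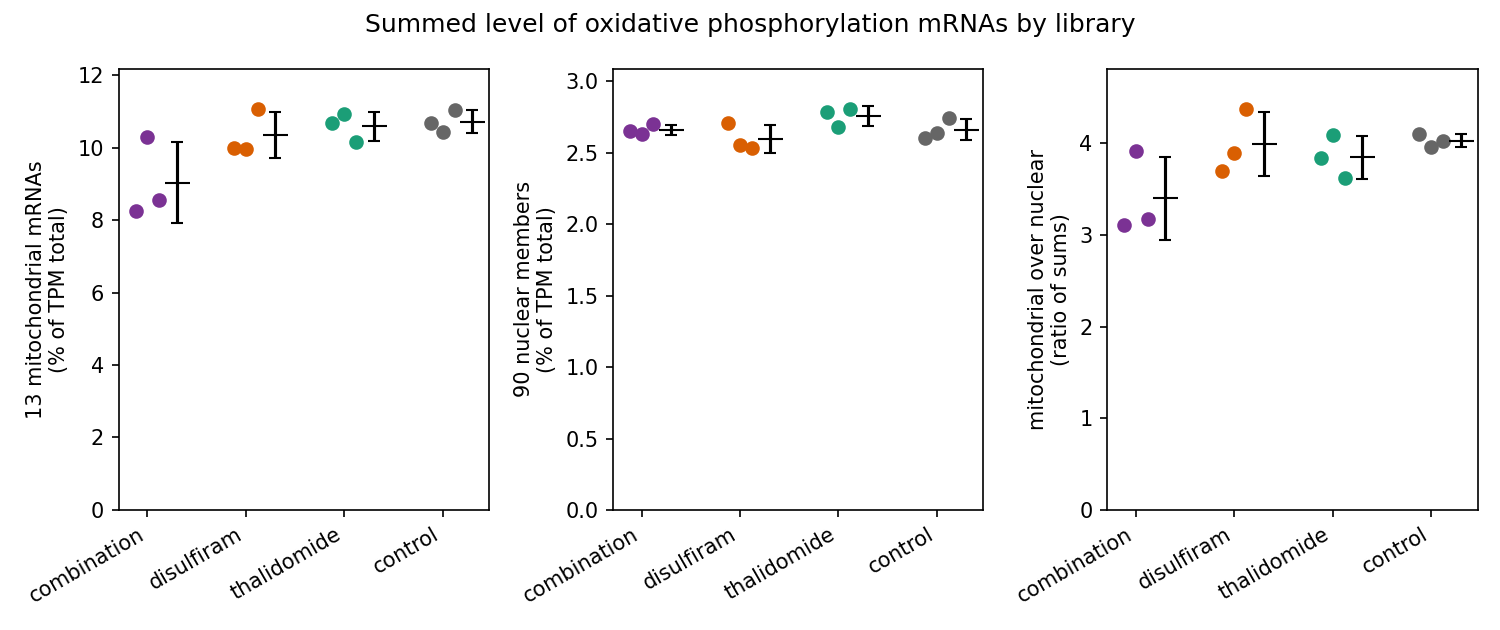
Summed level of the 13 mitochondrial mRNAs and of the 90 nuclear members as a percentage of the TPM total, and the ratio of these sums, by library; points are libraries, bars the mean ± SD (n = 3). The first and the third combination libraries, at 8.24% and 8.56%, hold the lowest mitochondrial shares, while the nuclear shares of all groups lie between 2.53% and 2.81%.

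For single mitochondrial genes, 4 of 13 fell with the combination and none rose, beside 6.7% of all genes tested that fell and 18.4% that rose. All 4 lie next to each other on the genome: MT-ATP8 (bases 8366 to 8572 of the GRCh38 mitochondrial sequence, GENCODE 29), MT-ATP6 (8527 to 9207), MT-CO3 (9207 to 9990) and MT-ND3 (10059 to 10404). Their adjacency was noticed after the values were seen, and MT-ATP8 and MT-ATP6 are counted separately although they share an mRNA. With disulfiram alone 0 of 13 passed, beside 13.2% of all genes in either direction, and 1 had an unadjusted p below 0.05 (limma). With thalidomide alone 0 of 13 passed, as did 0.0% of all genes, and 0 had an unadjusted p below 0.05 (limma).

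MT-ND3, a core subunit of the membrane arm of complex I, was at 3902, 5409 and 4115 TPM in combination libraries, 5477, 4799 and 5577 in disulfiram libraries, 7142, 6430.2 and 6213 in thalidomide libraries and 6652, 6515 and 6705 in control libraries. Every combination and every disulfiram library lay below every control and every thalidomide library. The fold change on the log2 scale was -0.58 ± 0.11 (adjusted p = 0.00501) in limma for the combination, -0.33 ± 0.11 with an adjusted p of 0.0705 for disulfiram and -0.01 ± 0.11 with an adjusted p of 0.999 for thalidomide. The fall with the combination passed in all 23 settings in which it could be tested, with values from -0.82 to -0.49. For disulfiram alone the limma adjusted p of MT-ND3 ran between 0.0131 and 0.220 over the alternatives, and it passed when only the disulfiram and control libraries were fitted (0.0322), without the second combination library (0.0131) and without both second libraries (0.0271). As a share of all mitochondrial mRNA, MT-ND3 made up 4.73%, 5.25% and 4.81% in combination libraries, 5.48%, 4.82% and 5.04% in disulfiram libraries, 6.68%, 5.88% and 6.12% in thalidomide libraries and 6.23%, 6.24% and 6.07% in control libraries. The share in combination and disulfiram libraries was thus below that in the other groups in every library, including the second ones. MT-ND1, the gene at the start of the protein-coding row and chosen after its values were seen, had shares of 2.07%, 2.19% and 2.16% in combination, 2.54%, 2.11% and 2.02% in disulfiram, 1.91%, 1.67% and 1.90% in thalidomide and 1.78%, 1.83% and 1.93% in control libraries.

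MT-ATP8 and MT-ATP6 encode membrane subunits of the ATP synthase and share 46 bases, bases 8527 to 8572, in which the start of MT-ATP6 lies inside the reading frame of MT-ATP8. The shared stretch is shown because reads from it cannot be assigned to 1 of the genes by position; capitals mark the start codon of MT-ATP6 in the GENCODE 29 transcript.
MT-ATP8 and MT-ATP6 overlap: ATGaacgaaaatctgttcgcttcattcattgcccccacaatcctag
MT-ATP8 was at 16475, 21925 and 18073 TPM with the combination, 22075, 22367 and 23779.9 with disulfiram, 22955, 22158 and 20945 with thalidomide and 22847, 24419 and 28084 in control libraries. Its fold change for the combination was -0.42 ± 0.10 (adjusted p = 0.0150) in limma. MT-ATP6 was at 5989, 7442 and 6213 TPM with the combination, 7261, 6889 and 7591 with disulfiram, 7682, 7354 and 7246 with thalidomide and 7501, 7883 and 8327 in control libraries, a fold change of -0.28 ± 0.08 (adjusted p = 0.0307) in limma for the combination. No combination library reached the control range for either gene. MT-CO3, a core subunit of complex IV, was at 6483, 8101 and 6528 TPM with the combination, 7299.8, 7787 and 8440.2 with disulfiram, 9572, 9797 and 9501 with thalidomide and 9653, 8483 and 8664 in control libraries. Its fold change was -0.35 ± 0.09 (adjusted p = 0.0192) in limma for the combination. The calls of MT-ATP8, MT-ATP6 and MT-CO3 were each lost without the first and without the third combination library, and without the first their fold changes were -0.33, -0.22 and -0.29, in that order. MT-ATP8, which had the highest TPM of the mitochondrial genes here, could not move under quantile normalization, where the top feature takes 1 common value in every library.

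The other 9 mitochondrial mRNAs did not pass against control in any comparison. MT-CO1, the catalytic subunit of complex IV, was at 9156, 11548 and 9249 TPM with the combination, 10215, 11501 and 13294 with disulfiram, 12794, 15399 and 12706 with thalidomide and 13362, 10159 and 10713 in control libraries. The first control library was well above the other control libraries, and treated and control libraries overlapped. MT-CO2, which carries the copper site that receives electrons from cytochrome c, was at 15315, 17619 and 15282 TPM with the combination, 17178, 18275 and 20448 with disulfiram, 18135, 19164 and 18063 with thalidomide and 17974, 17733 and 17955 in control libraries. Each combination library was below each control library, with an adjusted p of 0.136 in limma. MT-CYB, the cytochrome b of complex III, was at 2393, 3071 and 2505 TPM with the combination, 2772, 2825 and 3067 with disulfiram, 2991, 2639 and 2777 with thalidomide and 2944, 3070.4 and 3113 in control libraries, and the second combination library lay inside the control range. Without that library MT-CYB had a fold change of -0.31 (limma adjusted p = 0.00952), and MT-CO2 one of -0.23 (limma adjusted p = 0.0344).

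The remaining complex I genes of the mitochondrial genome encode the proton-pumping membrane arm. MT-ND1 was at 1708, 2256 and 1847 TPM with the combination, 2543, 2103 and 2230.1 with disulfiram, 2038, 1828 and 1932 with thalidomide and 1898, 1909.7 and 2136 in control libraries. MT-ND2 was at 3018, 4011 and 3274 TPM with the combination, 4671, 3514 and 4302 with disulfiram, 3644, 3087 and 3649.5 with thalidomide and 3273, 3647 and 4048 in control libraries. For both, the first disulfiram library was the highest of the 12 and treated and control libraries overlapped. MT-ND4L and MT-ND4, which share 7 bases, had ranges of 9060.2 to 10658 and 4283 to 5074 TPM with the combination, 9708 to 10998 and 4645 to 5296 with disulfiram, 9515 to 10774 and 4649 to 5327 with thalidomide and 10646 to 11103 and 4671 to 4841 in control libraries. MT-ND5 ran over 1782 to 2236 TPM with the combination, 2106 to 2341 with disulfiram, 1765 to 2164 with thalidomide and 2082 to 2118 in control libraries. MT-ND6, the one mRNA read from the opposite strand, ran over 2603 to 3646 TPM with the combination, 3011 to 3289 with disulfiram, 2547 to 3281 with thalidomide and 2800.2 to 3015 in control libraries, and its fold change for the combination was 0.00 ± 0.12. All of these groups overlapped. Across the 13 genes the median fold change was -0.16 for the combination, 0.03 for disulfiram and -0.04 for thalidomide, beside 0.20, 0.09 and -0.03 over all genes tested.

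**Figure D2:**
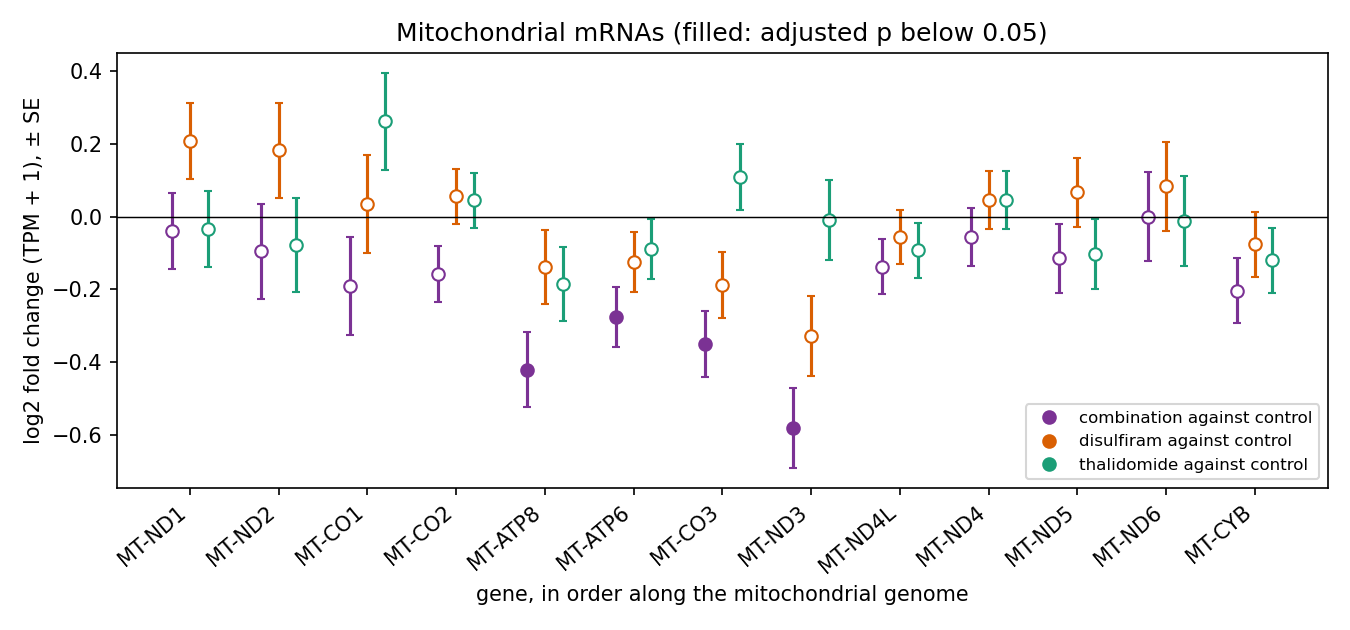
Log2 fold change of each mitochondrial mRNA against control for the combination, disulfiram and thalidomide, in the order of the genes along the mitochondrial genome; points are the fitted differences, bars ± SE, and filled points have an adjusted p below 0.05. The 4 filled points, all for the combination, run from MT-ATP8 to MT-ND3, and MT-ND3 has the lowest value at -0.58.

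Nuclear copies limit how exactly these levels belong to the organelle. The table lists 394 mitochondrial pseudogenes of the nucleus, of which MTND1P23, MTCO1P12, MTATP6P1 and MTND6P3 averaged at least 10 TPM, and all of them summed to 1463 to 2091 TPM per library, against mitochondrial sums of 82417 to 110653 TPM. How the authors divided reads between such copies is not given in the sources used here. Of the nuclear members, 45 have named pseudogenes (159 in all), whose sum exceeded 10% of the parent gene for SDHA and UQCRFS1 of the tested members.

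Among the 82 nuclear members tested, 14 rose and 10 fell with the combination against control. Counted with the mitochondrial mRNAs, 14 of 95 members rose and 14 fell. Over all genes tested 18.4% rose and 6.7% fell, and 25.1% were called in either direction, so the share of members that rose (14.7%) was below this background and the share that fell (14.7%) above it. With disulfiram alone 3 of 95 members rose and 6 fell, all of them nuclear, beside 8.73% of all genes that rose and 4.52% that fell (13.2% in either direction). With thalidomide alone 0 of 95 passed, as did 0.0% of all genes tested, while 8 members and 873 genes had an unadjusted p below 0.05 (limma). The median fold change of the members was 0.00 for the combination, 0.01 for disulfiram and 0.04 for thalidomide.

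The split between rises and falls depended on the scaling. Over all genes the median fold change was 0.20 for the combination and 0.09 for disulfiram on the deposited TPM scale. With median-of-ratios scaling, which brought these medians to 0.03 and 0.00, 4 members rose and 32 fell with the combination, beside 8.8% and 12.2% of all genes, and 0 members rose and 10 fell with disulfiram, beside 5.0% and 6.31% of all genes. Without the second disulfiram and the second combination libraries, 53 members were called for the combination (30 higher and 23 lower), beside 29.4% and 8.7% of all genes, and 16 for disulfiram (7 higher and 9 lower), beside 11.5% and 4.92% of all genes. Leaving out single libraries gave 8 to 47 calls for the combination, with 8 without the first or the third combination library, beside 10.8% and 9.29% of all genes in either direction, and 47 without the second, beside 33.1%. It gave 14, 17 and 17 without the first, the second and the third control library, beside 12.9%, 17.1% and 13.6%. For disulfiram it gave 3 to 13 calls, with 5 without the first or the third disulfiram library, beside 8.4% and 7.64% of all genes, and 3, 5 and 5 without the first, the second and the third control library, beside 7.91%, 8.79% and 8.48%. Across all 24 settings, ATP5MC1, ATP5MC2 and NDUFB2 were called lower for disulfiram and for the combination, and NDUFA4 was called higher for the combination. Apart from these and MT-ND3, every call against control was lost when some single library was left out, except that of COX8A with the combination, which was lost with GC correction and with quantile normalization.

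**Figure D3:**
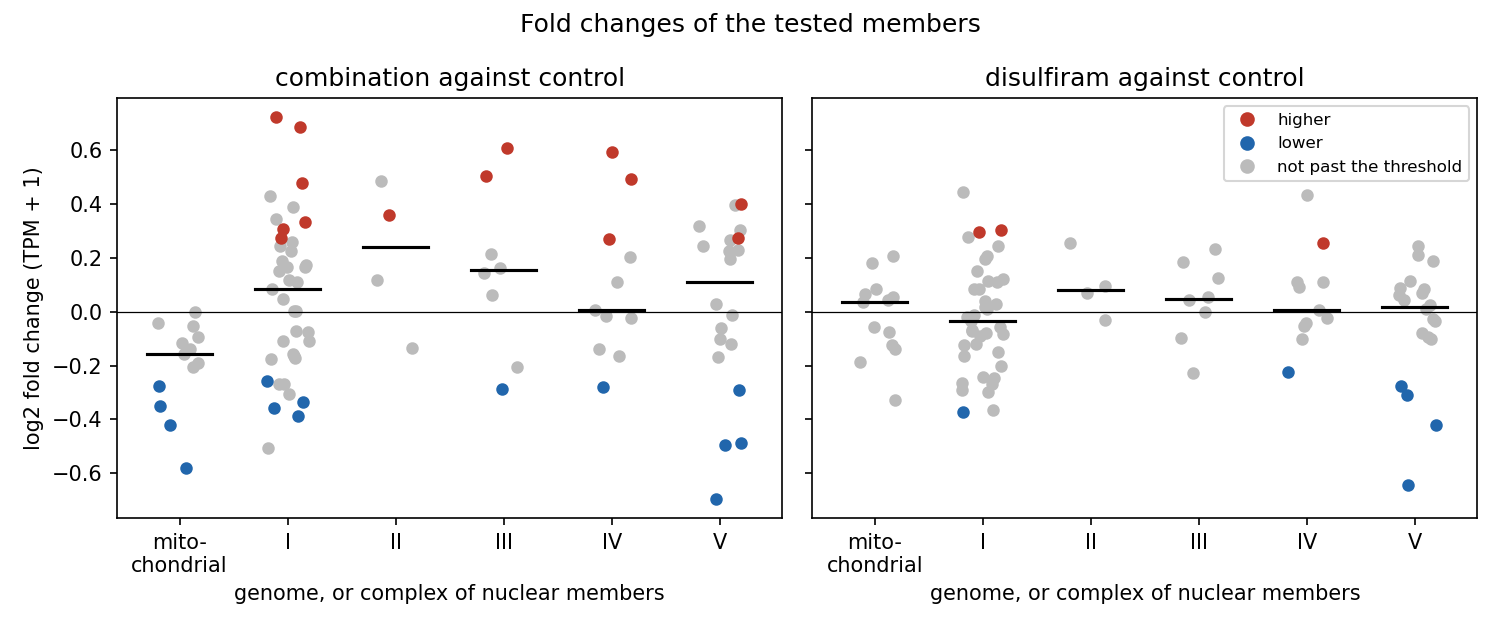
Log2 fold change of each tested member against control for the combination and for disulfiram, grouped as mitochondrial mRNAs and as nuclear members of complexes I to V; points are genes coloured by the call, and the horizontal lines are group medians. The lowest value in both panels is that of ATP5MC1, a complex V gene, at -0.70 for the combination and -0.64 for disulfiram.

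The ATP synthase held ATP5MC1, the member with the largest fall in both comparisons. Its nuclear genes counted 2 rises and 4 falls among 20 tested with the combination, beside 18.4% and 6.7% of all genes. They counted 0 rises and 4 falls with disulfiram, beside 8.73% and 4.52% of all genes. ATP5MC1, ATP5MC2 and ATP5MC3 each encode the c subunit of the rotor ring: their precursors have different targeting peptides and give the same mature protein. The final 228 bases of the coding sequences of ATP5MC1 (bases 184 to 411 of its coding sequence, chromosome 17) and ATP5MC2 (bases 370 to 597, chromosome 12) are shown from the GENCODE 29 transcripts, because reads have to be told apart between these genes. Capitals mark bases that differ.
ATP5MC1: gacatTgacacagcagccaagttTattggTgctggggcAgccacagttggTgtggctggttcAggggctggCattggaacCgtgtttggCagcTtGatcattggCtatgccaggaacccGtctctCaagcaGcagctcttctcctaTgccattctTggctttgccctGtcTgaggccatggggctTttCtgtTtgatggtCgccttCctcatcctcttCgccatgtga
ATP5MC2: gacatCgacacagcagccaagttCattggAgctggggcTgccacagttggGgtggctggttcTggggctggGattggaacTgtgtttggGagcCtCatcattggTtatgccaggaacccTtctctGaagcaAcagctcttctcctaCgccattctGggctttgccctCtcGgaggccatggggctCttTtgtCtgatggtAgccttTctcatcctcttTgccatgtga
In this stretch 203 of 228 bases were identical (89.0%), 23 of the 25 differences were at the third base of a codon, and the longest identical run was 17 bases.

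ATP5MC1 was at 197, 233 and 191 TPM with the combination, 242, 191 and 213 with disulfiram, 380.4, 312 and 356 with thalidomide and 322, 309 and 378 in control libraries. Its fold change was -0.70 ± 0.12 (adjusted p = 0.00290) for the combination and -0.64 ± 0.12 (adjusted p = 0.00458) for disulfiram in limma. ATP5MC2 was at 274, 276 and 254 TPM with the combination, 257, 299 and 287 with disulfiram, 428, 426 and 425 with thalidomide and 417, 358 and 355 in control libraries, with fold changes of -0.49 ± 0.08 (adjusted p = 0.00265) for the combination and -0.42 ± 0.08 (adjusted p = 0.00604) for disulfiram in limma. For both genes every library with disulfiram, alone or in combination, lay below every library without it. ATP5MC3 did not pass: it was at 553, 559 and 593 TPM with the combination, 551, 540.2 and 515 with disulfiram, 617, 547 and 635 with thalidomide and 589, 537 and 597 in control libraries, with fold changes of -0.01 ± 0.07 for the combination and -0.10 ± 0.07 for disulfiram, and each treated group overlapped control. The 3 genes summed to 1024, 1069 and 1038 TPM with the combination, 1049, 1030 and 1014 with disulfiram, 1426, 1286 and 1417 with thalidomide and 1327, 1204 and 1330 in control libraries. ATP5MC3 made up 54.5% of that sum on average with the combination and 51.9% with disulfiram, against 43.6% with thalidomide and 44.6% in control libraries. ATP5MC1 made up 19.8 ± 1.77% with the combination and 20.8 ± 2.26% with disulfiram, against 25.4 ± 1.22% with thalidomide and 26.1 ± 2.13% in control libraries (SD, n = 3 each).

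Among the other ATP synthase subunits, ATP5MF, subunit f of the membrane part, was at 1031, 1169 and 1106 TPM with the combination, 1081, 1145 and 1109.9 with disulfiram and 1395, 1257 and 1389 in control libraries, with fold changes of -0.29 ± 0.07 (adjusted p = 0.0132) and -0.28 ± 0.07 (adjusted p = 0.0218) in limma for the combination and for disulfiram, the first of which was lost with GC correction. ATP5F1A, the alpha subunit of the catalytic head, was at 265, 215 and 256 TPM with the combination, 219.9, 207 and 215 with disulfiram and 274, 254 and 269.7 in control libraries. It fell with disulfiram, with a fold change of -0.31 ± 0.09 (adjusted p = 0.0348) in limma, whereas its fold change for the combination was -0.12 ± 0.09 and did not pass; the call for disulfiram was lost without any 1 of the disulfiram or control libraries. ATP5F1D, the delta subunit of the central stalk, was at 148, 178 and 167 TPM with the combination, 239, 252 and 224 with disulfiram and 214, 209 and 276 in control libraries, a fold change of -0.49 ± 0.12 (adjusted p = 0.0166) in limma for the combination that was lost with GC correction. Higher with the combination were ATP5F1E, the epsilon subunit of the stalk (0.40 ± 0.13 (adjusted p = 0.0445)), and ATP5IF1, the inhibitor that binds the catalytic head when the enzyme would run backwards (0.27 ± 0.08 (adjusted p = 0.0358)), both in limma. ATP5IF1 was at 637, 616 and 666 TPM with the combination, 621, 496 and 572 with disulfiram, 631, 609 and 556 with thalidomide and 508, 542 and 538 in control libraries, and both calls were lost with median-of-ratios scaling (0.07 for ATP5IF1 and 0.20 for ATP5F1E). ATP5F1B, the catalytic beta subunit and chosen for its role, ran over 771 to 817 TPM with the combination, 797 to 840.4 with disulfiram and 799.7 to 859.7 in control libraries, with overlapping groups.

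**Figure D4:**
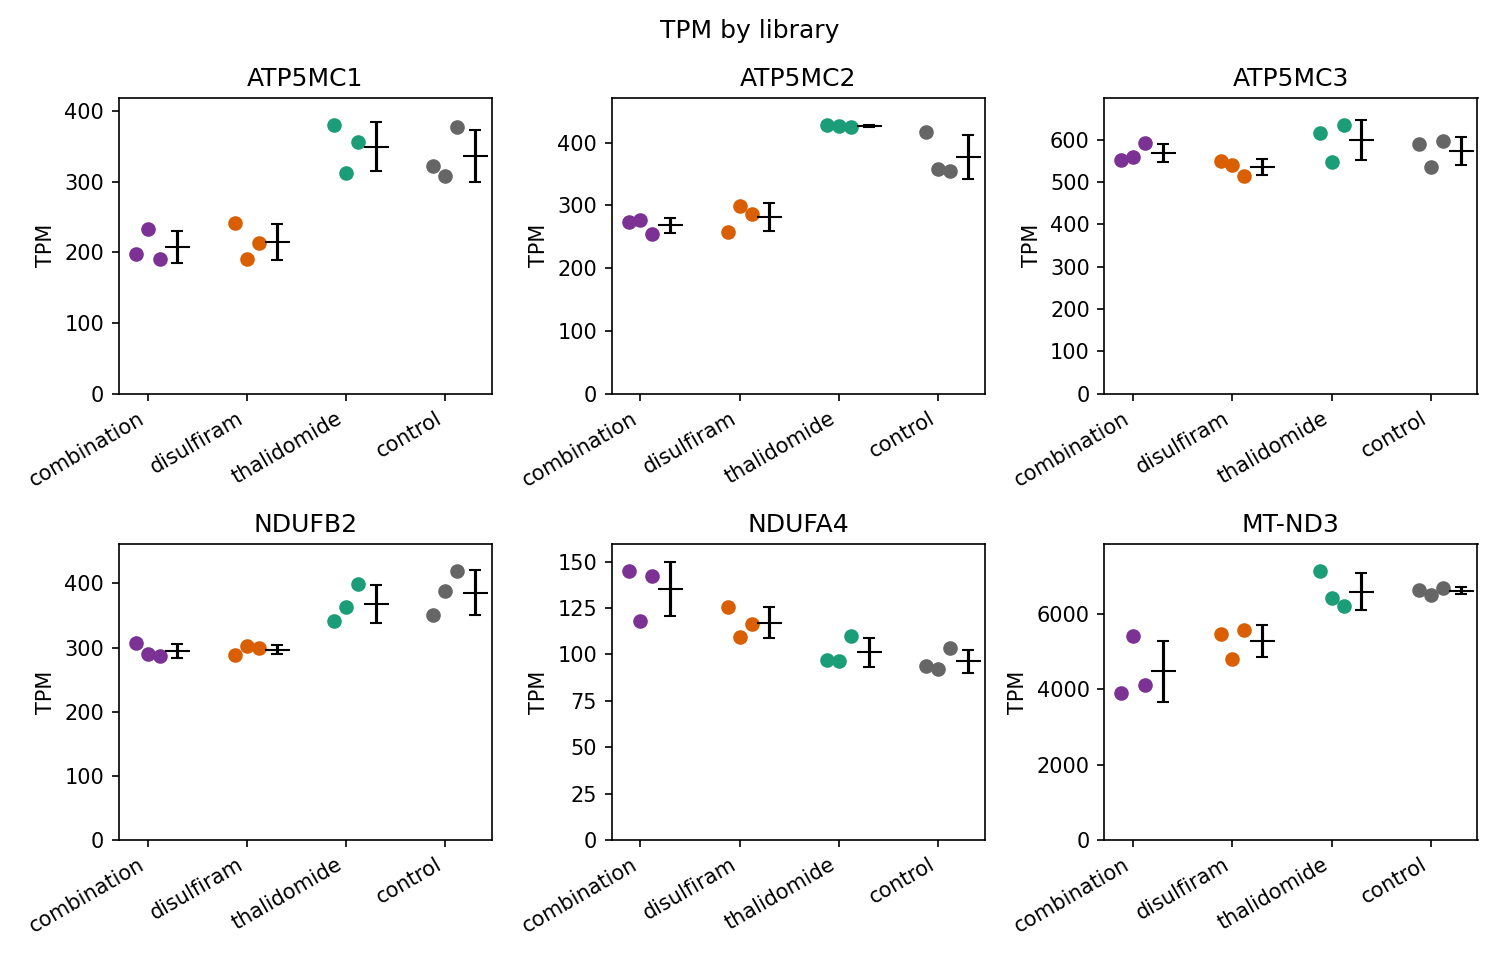
TPM of the c-subunit genes ATP5MC1, ATP5MC2 and ATP5MC3, of NDUFB2 and NDUFA4 and of MT-ND3 by library; points are libraries, bars the mean ± SD (n = 3). ATP5MC1 averages 207 TPM with the combination and 336 TPM in control libraries, whereas the treated groups each overlap control for ATP5MC3.

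In complex I, with NDUFA4 counted by its symbol, 6 of 39 nuclear members rose (15.4%) and 4 fell (10.3%) with the combination. Over all genes tested 18.4% rose and 6.7% fell. With disulfiram 2 rose (5.13%) and 1 fell (2.56%), beside 8.73% and 4.52% of all genes. NDUFB2, an accessory subunit of the membrane arm, was at 307, 289 and 287 TPM with the combination, 289, 303 and 298 with disulfiram, 341, 363 and 399.6 with thalidomide and 350.4, 388 and 419 in control libraries. Its fold changes were -0.39 ± 0.08 (adjusted p = 0.00716) for the combination and -0.37 ± 0.08 (adjusted p = 0.0103) for disulfiram in limma, and every library with disulfiram was below every library without it. NDUFS3, a core subunit of the peripheral arm, rose and was at 215, 226 and 246 TPM with the combination, 240.3, 235 and 221 with disulfiram and 192, 179 and 196 in control libraries, with fold changes of 0.27 ± 0.08 (adjusted p = 0.0252) and 0.30 ± 0.08 (adjusted p = 0.0264) in limma for the combination and for disulfiram. NDUFA8, an accessory subunit on the outer face of the membrane arm, was at 144, 136 and 148 TPM with the combination, 151, 135 and 134 with disulfiram and 118, 108 and 115 in control libraries, with fold changes of 0.33 ± 0.08 (adjusted p = 0.0146) and 0.30 ± 0.08 (adjusted p = 0.0300) in limma for the combination and for disulfiram. Median-of-ratios scaling ended the NDUFS3 and NDUFA8 calls in both comparisons.

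The accessory subunits NDUFA5 and NDUFB3 had the largest rises of the members with the combination. NDUFA5 was at 39.3, 22.9 and 36.8 TPM with the combination, 22.8, 15.4 and 25.0 with disulfiram and 16.8, 21.7 and 19.1 in control libraries (0.72 ± 0.23 (adjusted p = 0.0406) in limma). NDUFB3 was at 213, 176 and 224 TPM with the combination, 228, 136 and 164 with disulfiram and 108, 134 and 138 in control libraries (0.69 ± 0.17 (adjusted p = 0.0164) in limma). In both, the second combination library was the lowest of its group, for NDUFA5 close to the highest control library, and both calls were lost without the first or the third combination library. NDUFA12 rose as well (0.31 ± 0.08 (adjusted p = 0.0195) in limma). Of the core subunits of the peripheral arm, NDUFS7 was at 181, 231 and 194 TPM with the combination, 214, 219 and 211 with disulfiram and 243, 265 and 267 in control libraries and fell with the combination (-0.36 ± 0.09 (adjusted p = 0.0161) in limma). NDUFA11 and NDUFA10, accessory subunits, also fell with the combination, with fold changes of -0.34 ± 0.09 (adjusted p = 0.0171) and -0.26 ± 0.08 (adjusted p = 0.0351) in limma. The NDUFS7 and NDUFA11 calls were lost with GC correction.

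NDUFA4 was first assigned to complex I, which its symbol keeps, and was later placed in complex IV, but it is counted here under complex I. It was at 145, 118 and 142 TPM with the combination, 126, 109 and 116 with disulfiram, 97.1, 96.3 and 110.1 with thalidomide and 93.8, 92.0 and 103 in control libraries. Every library with disulfiram was above the control range, though the second disulfiram library was slightly below the highest thalidomide library. The fold change was 0.48 ± 0.10 (adjusted p = 0.00660) for the combination in limma. For disulfiram alone it was 0.28 ± 0.10 (adjusted p = 0.0805) in limma and missed the threshold. NDUFA4L2, its hypoxia-inducible paralog, was low throughout, at 1.46, 1.51 and 1.22 TPM with the combination, 1.08, 1.45 and 2.59 with disulfiram, 1.89, 5.77 and 2.42 with thalidomide and 2.16, 3.38 and 1.83 in control libraries, and did not pass in any comparison.

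In complex II, SDHB, the iron-sulfur subunit, was the 1 of 4 members that rose with the combination, beside 18.4% of all genes. It was at 134, 116 and 144 TPM with the combination, 137, 112 and 117 with disulfiram, 102, 96.3 and 103 with thalidomide and 94.6, 104 and 107 in control libraries, with a fold change of 0.36 ± 0.10 (adjusted p = 0.0234) for the combination in limma that was lost with median-of-ratios scaling (0.16). SDHD, a membrane anchor, was at 65.9, 39.4 and 59.4 TPM with the combination, 50.7, 34.9 and 38.3 with disulfiram, 25.8, 31.5 and 35.2 with thalidomide and 36.9, 40.4 and 37.0 in control libraries. Its second combination library lay inside the control range, and its fold change against control, 0.48 ± 0.19, missed the threshold (limma adjusted p = 0.0754) but was 0.70 without that library (limma adjusted p = 0.00968). SDHC, the other anchor, ran over 148 to 155 TPM with the combination, 135 to 153 with disulfiram, 125 to 154 with thalidomide and 129 to 144 in control libraries. SDHA, the flavoprotein subunit, ran over 73.7 to 83.2 TPM with the combination, 82.3 to 88.1 with disulfiram, 78.3 to 84.1 with thalidomide and 84.2 to 93.6 in control libraries. Neither SDHC nor SDHA passed.

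In complex III, 2 of 8 nuclear members rose (25.0%) and 1 fell (12.5%) with the combination, beside 18.4% and 6.7% of all genes. None passed with disulfiram alone, beside 13.2% of all genes in either direction. The core proteins UQCRC1 and UQCRC2, which form a pair on the matrix side, went in opposite directions. UQCRC2 was at 141, 102 and 120.0 TPM with the combination, 119, 81.6 and 100.3 with disulfiram and 85.0, 76.0 and 92.8 in control libraries and rose (0.50 ± 0.15 (adjusted p = 0.0282) in limma). UQCRC1 was at 246, 305 and 265 TPM with the combination, 287, 326 and 315 with disulfiram and 315, 343 and 334 in control libraries and fell (-0.29 ± 0.08 (adjusted p = 0.0293) in limma). Median-of-ratios scaling ended the UQCRC2 call (0.30), and GC correction ended that of UQCRC1 (-0.12). UQCRB, a ubiquinone-binding subunit, was at 188, 161 and 186 TPM with the combination, 158, 100.2 and 146 with disulfiram and 112, 119.9 and 117 in control libraries and rose (0.61 ± 0.15 (adjusted p = 0.0173) in limma).

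In complex IV, counted without NDUFA4, 3 of 11 nuclear members tested rose (27.3%) and 1 fell (9.09%) with the combination. Over all genes tested 18.4% rose and 6.7% fell. With disulfiram 1 rose and 1 fell (9.09% each), beside 8.73% and 4.52% of all genes. COX8A and COX6A1, accessory subunits, were called in both comparisons and in opposite directions. Their promoters are shown because these genes of 1 complex moved apart, beside that of ATP5MC1, the member that fell most with the combination. Each is the 250 bases before the RefSeq start on GRCh38.p14, and capitals mark matches on either strand to the NRF1 motif TGCGCA, the ETS core CCGGAAG or the YY1 core ATGGCGG.
COX8A, chr11:63974370-63974619, plus strand: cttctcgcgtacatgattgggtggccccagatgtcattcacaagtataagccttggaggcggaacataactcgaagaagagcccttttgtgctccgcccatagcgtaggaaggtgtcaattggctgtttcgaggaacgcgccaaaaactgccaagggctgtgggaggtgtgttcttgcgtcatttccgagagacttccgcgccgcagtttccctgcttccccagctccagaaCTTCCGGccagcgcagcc
COX6A1, chr12:120437863-120438112, plus strand: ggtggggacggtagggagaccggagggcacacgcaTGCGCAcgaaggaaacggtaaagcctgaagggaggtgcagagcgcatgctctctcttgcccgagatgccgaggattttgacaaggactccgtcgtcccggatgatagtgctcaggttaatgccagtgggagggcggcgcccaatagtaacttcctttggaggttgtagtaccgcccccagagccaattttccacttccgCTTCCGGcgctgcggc
ATP5MC1, chr17:48892537-48892786, plus strand: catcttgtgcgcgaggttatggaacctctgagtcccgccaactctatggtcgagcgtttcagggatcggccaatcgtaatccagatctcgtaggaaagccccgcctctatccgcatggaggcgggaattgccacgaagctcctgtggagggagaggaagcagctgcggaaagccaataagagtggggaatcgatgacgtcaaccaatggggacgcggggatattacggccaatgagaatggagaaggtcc
COX8A held 1 ETS core, COX6A1 1 NRF1 motif and 1 ETS core, and ATP5MC1 none of these. NRF1 and GABP, an ETS factor, are known regulators of respiratory genes. Of the 70 nuclear members with a promoter entry, 24.3% held the NRF1 motif, 24.3% the ETS core and 7.1% the YY1 core, beside 7.0%, 8.8% and 2.8% of all 27305 promoters of this length. Overlapping matches were each counted, and a match is a run of letters and not a measured site.

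COX8A was at 576, 623 and 604 TPM with the combination, 646, 621 and 605 with disulfiram, 781, 803 and 744 with thalidomide and 741, 726 and 722 in control libraries, with fold changes of -0.28 ± 0.06 (adjusted p = 0.00722) for the combination and -0.23 ± 0.06 (adjusted p = 0.0247) for disulfiram in limma. COX6A1 was at 1017, 993 and 1069.8 TPM with the combination, 1076, 1029.7 and 947 with disulfiram, 917, 908 and 912 with thalidomide and 793, 883 and 879 in control libraries, with fold changes of 0.27 ± 0.07 (adjusted p = 0.0156) for the combination and 0.26 ± 0.07 (adjusted p = 0.0265) for disulfiram in limma. For both genes the libraries with disulfiram did not overlap those without it. The COX8A calls were lost with GC correction, and the COX6A1 calls with GC correction and with median-of-ratios scaling. COX7B was at 75.6, 69.3 and 69.4 TPM with the combination, 75.2, 53.9 and 64.3 with disulfiram and 40.4, 52.0 and 49.5 in control libraries and rose with the combination (0.59 ± 0.14 (adjusted p = 0.0139) in limma), as did COX6C (0.49 ± 0.17 (adjusted p = 0.0496)), which was at 291, 210.1 and 302 TPM with the combination and 183, 189 and 190.3 in control libraries. The COX7B call held in 22 of 24 settings. That of COX6C held in 11, and was lost with a pseudocount of 0.1, with median-of-ratios scaling and without any 1 of the control libraries. COX4I1, the abundant form of subunit 4, ran over 1330.1 to 1420.2 TPM with the combination, 1379 to 1474 with disulfiram, 1628 to 1706 with thalidomide and 1501 to 1559 in control libraries. It missed the threshold against control for the combination (limma adjusted p = 0.0792), and its paralog COX4I2 reached at most 0.22 TPM. COX7A2 ran over 437 to 446 TPM with the combination and 421 to 468 in control libraries, and COX7A2L, which takes part in joining complexes III and IV, over 65.3 to 70.7 and 61.7 to 75.5, and neither passed. The muscle forms COX6A2 and COX7A1 were at 0 in every library.

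The direction of change among nuclear members with the combination went with base composition. Across the 82 tested nuclear members the fold change and the GC content of the longest transcript had a Spearman's rho of -0.54 for the combination, -0.26 for disulfiram and 0.15 for thalidomide, beside -0.44, 0.00 and 0.20 over 15042 genes. The genes share libraries, so these values describe them without a test. The 14 members that rose with the combination had a median GC content of 43.1%, the 10 that fell 58.3% and the 58 others 47.9%. The mitochondrial mRNAs lay between 39.6% and 47.7%. The 4 that fell were at 39.6% (MT-ATP8), 40.2% (MT-ND3), 44.2% (MT-ATP6) and 46.6% (MT-CO3). Those that did not pass ran from 42.7% to 47.7%. Within groups, the deviation of a library from its group mean went with GC content over the same 82 members at rho -0.63, 0.68 and -0.43 in the first, the second and the third combination library, -0.42, 0.49 and -0.19 in the disulfiram libraries in that order, 0.46, -0.20 and -0.43 in the thalidomide libraries, and -0.11 to 0.03 in control libraries. With GC correction 17 members rose and 10 fell with the combination, beside 22.9% and 5.4% of all genes, and 5 rose and 8 fell with disulfiram, beside 11.5% and 6.15%. ATP5MC1 (47.9% GC), ATP5MC2 (48.3%) and NDUFB2 (45.0%) kept their calls under it in both comparisons, as did the 4 mitochondrial mRNAs with the combination. What part base composition has in the other calls was not tested beyond this.

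**Figure D5:**
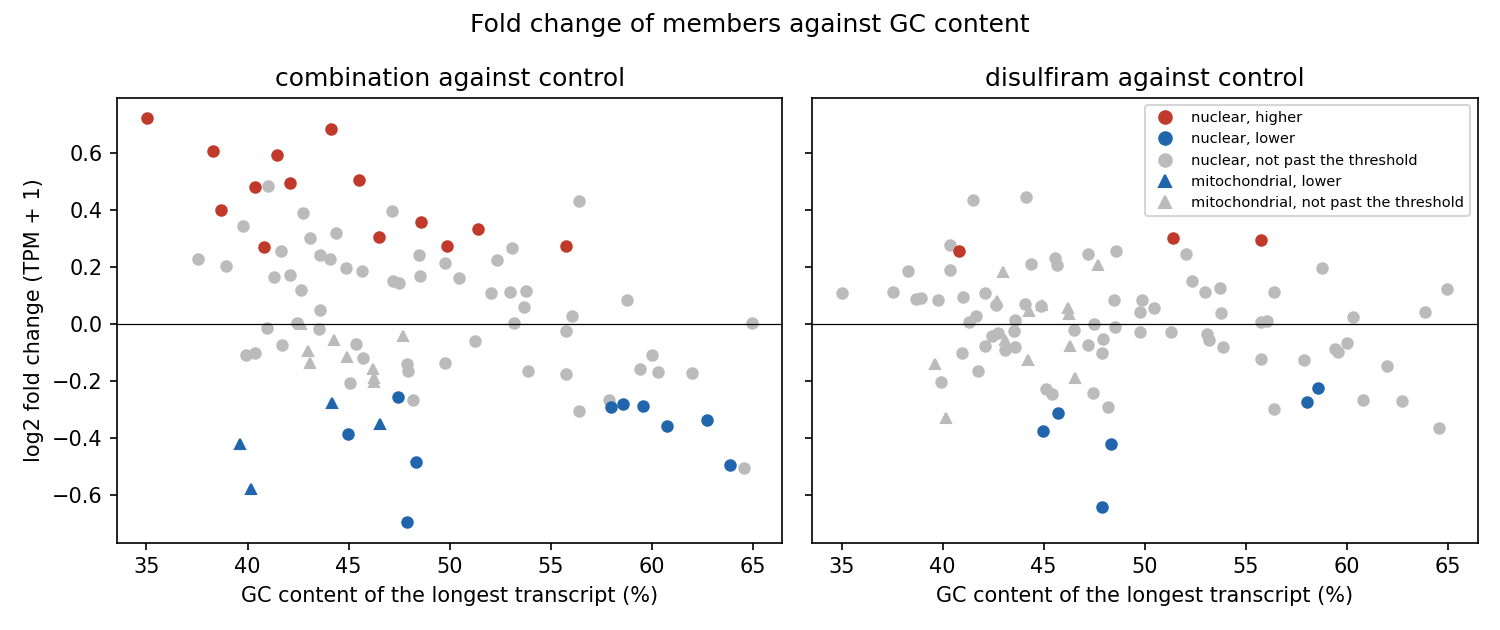
Log2 fold change against control by GC content of the longest transcript for tested members, for the combination and for disulfiram; circles are nuclear and triangles mitochondrial genes, coloured by the call. In the combination panel the nuclear genes that rose have a median of 43.1% GC and those that fell 58.3%. The mitochondrial genes that fell lie between 39.6% and 46.6%.

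Whether the combination differed from each drug alone was asked next. Against disulfiram, 0 of 95 members passed in limma, as did 0.00651% of all genes (1 gene); 19 members and 2631 genes had an unadjusted p below 0.05, and the smallest adjusted p among members was 0.253. The mitochondrial mRNAs had fold changes from -0.28 to -0.08 here, all 13 below 0, with 4 at an unadjusted p below 0.05. Their median was -0.18, beside 0.06 over all genes tested. They share libraries and some share an mRNA, so they are not 13 separate observations. Their summed share in the second combination library (10.3%) lay inside the disulfiram range (9.96% to 11.1%). The interaction, which asks whether both drugs together differ from the sum of the single effects on the log2 scale, was called for 0 members (0.0% of all genes; 8 members and 1580 genes at an unadjusted p below 0.05), with a smallest adjusted p of 0.466. For MT-ND3 the values side by side were -0.58 ± 0.11 for the combination, -0.33 ± 0.11 for disulfiram and -0.01 ± 0.11 for thalidomide, all against the same control libraries, and -0.25 ± 0.11 for the combination against disulfiram (limma adjusted p = 0.282).

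Against thalidomide, 14 members rose and 19 fell with the combination, 3 of the falls mitochondrial, beside 25.0% and 7.24% of all genes (32.2% in either direction). With median-of-ratios scaling 2 rose and 39 fell, beside 11.8% and 14.7% of all genes. The counts were 16, 14 and 18 without the first combination, the third combination and the first thalidomide library, beside 14.8%, 14.2% and 15.7% of all genes. ATP5MC1 (-0.75 ± 0.12 (adjusted p = 0.00141)), ATP5MC2 (-0.67 ± 0.08 (adjusted p = 0.000333)) and MT-ND3 (-0.57 ± 0.11 (adjusted p = 0.00434)) had the largest falls of the called members in limma. NDUFA4L2, low throughout, had -0.76 ± 0.30 and was not called (limma adjusted p = 0.0723). MT-CO3 (-0.46 ± 0.09 (adjusted p = 0.00495)) and MT-CO1 (-0.45 ± 0.13 (adjusted p = 0.0257)) also fell in limma, MT-CO1 being at 9156, 11548 and 9249 TPM with the combination and 12794, 15399 and 12706 with thalidomide, without overlap, though its call was lost without the first or the second thalidomide or the first or the third combination library. In complex I NDUFA11 (-0.46 ± 0.09 (adjusted p = 0.00352)), NDUFS7 (-0.40), NDUFA7 (-0.34), NDUFB2 (-0.32), NDUFS8 (-0.31), NDUFS6 (-0.30), NDUFB11 (-0.27), NDUFC2 (-0.26) and NDUFA13 (-0.26) fell. NDUFA11 was at 659.9, 812 and 697 TPM with the combination and 1088, 914 and 980.2 with thalidomide.

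Of complex IV, COX4I1 (-0.26 ± 0.05 (adjusted p = 0.00645)), COX5A (-0.27 ± 0.06 (adjusted p = 0.00838)) and COX8A (-0.37 ± 0.06 (adjusted p = 0.00154)) fell in limma against thalidomide. COX5A, which like COX4I1 contacts the catalytic core, was at 296, 311 and 299.5 TPM with the combination and 355, 369 and 368 with thalidomide, and no libraries overlapped. UQCRC1 (-0.27) and ATP5MF (-0.24) fell as well. The largest rises were SDHD (0.79 ± 0.19 (adjusted p = 0.0107)), NDUFB3 (0.74 ± 0.17 (adjusted p = 0.00993)), NDUFA5 (0.68), UQCRB (0.59), COX6C (0.57), ATP5MD (0.53), COX7B (0.52) and UQCRC2 (0.47). SDHD was above the thalidomide range in all 3 combination libraries. Of these 33 calls, 9 held in every setting tried: the rises of SDHD and NDUFB3 and the falls of ATP5MC1, ATP5MC2, MT-ND3, COX4I1, COX5A, NDUFA11 and NDUFA7.

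Genes that build and supply the complexes were followed in further lists, without a test of the lists. Their counts stand beside 18.4% of all genes that rose and 6.7% that fell with the combination. With disulfiram these shares were 8.73% and 4.52%. Calls in these lists come from the main fit, and the genes were not followed through the alternative settings. Of 17 complex I assembly factors, all tested, 4 rose and 2 fell with the combination and 1 rose and 1 fell with disulfiram. ACAD9, an assembly factor related to acyl-CoA dehydrogenases, fell in both, at 22.9, 25.3 and 26.4 TPM with the combination, 24.8, 25.8 and 23.7 with disulfiram, 33.5, 28.7 and 33.0 with thalidomide and 35.0, 35.8 and 33.4 in control libraries (-0.47 ± 0.09 (adjusted p = 0.00552) and -0.47 ± 0.09 (adjusted p = 0.00640) in limma). No library with disulfiram overlapped one without it. TMEM126B, part of the same assembly complex, was at 31.2, 16.8 and 28.9 TPM with the combination and 11.0, 14.0 and 10.5 in control libraries (1.02 ± 0.27 (adjusted p = 0.0196) in limma). The second combination library was again the lowest of its group and close to the highest control library. The other largest changes with the combination were rises of NDUFAF7 (0.72) and NDUFAF6 (0.67), and with disulfiram ECSIT rose (0.35).

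Of 33 assembly factors of complexes II to V, 6 rose and 2 fell with the combination, beside 18.4% and 6.7% of all genes. With disulfiram 1 rose and 1 fell, beside 8.73% and 4.52%. The complex III factors UQCC1 and UQCC2, which act on newly made cytochrome b, moved apart. UQCC2 was at 47.0, 47.2 and 47.7 TPM with the combination, 44.4, 40.2 and 38.0 with disulfiram, 63.8, 61.7 and 66.3 with thalidomide and 61.6, 64.5 and 68.4 in control libraries, with fold changes of -0.45 ± 0.08 (adjusted p = 0.00388) with the combination and -0.66 ± 0.08 (adjusted p = 0.000440) with disulfiram in limma. UQCC1 was at 63.8, 65.7 and 66.9 TPM with the combination, 64.7, 65.6 and 62.3 with disulfiram, 48.8, 46.1 and 50.5 with thalidomide and 49.8, 53.2 and 54.6 in control libraries, rising by 0.31 ± 0.07 (adjusted p = 0.0110) with the combination and 0.28 ± 0.07 (adjusted p = 0.0216) with disulfiram in limma. For both genes the libraries with disulfiram did not overlap the others. COX20, which helps to insert MT-CO2, was at 38.4, 26.8 and 34.0 TPM with the combination and 13.7, 15.4 and 16.5 in control libraries (1.06 ± 0.19 (adjusted p = 0.00386) in limma), and COA6 (0.63) and COA5 (0.63) also rose. Of 12 genes for cytochrome c, cytochrome c1 and ubiquinone synthesis, 1 rose and 1 fell with the combination and 2 rose with disulfiram. CYC1, the cytochrome c1 of complex III, was at 190.2, 223 and 208 TPM with the combination, 244, 263 and 244 with disulfiram and 279, 281 and 317 in control libraries and fell with the combination (-0.50 ± 0.09 (adjusted p = 0.00438) in limma). COQ6, a ubiquinone synthesis enzyme, rose with the combination (0.48) and with disulfiram (0.47), where COQ9 rose too (0.33).

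Of 22 genes for mitochondrial transcription and RNA handling, 21 were tested, and FASTKD4 was not matched by that symbol. With the combination 3 rose and 1 fell, beside 18.4% and 6.7% of all genes. With disulfiram 0 of 21 passed, beside 13.2% of all genes in either direction. TFAM, which packages mitochondrial DNA and starts its transcription, was at 16.9, 8.46 and 17.2 TPM with the combination, 11.7, 6.36 and 9.81 with disulfiram, 4.39, 5.28 and 7.78 with thalidomide and 5.64, 6.65 and 7.36 in control libraries, with a fold change of 0.95 ± 0.28 (adjusted p = 0.0286) for the combination in limma. Its second combination library was the nearest of its group to the control range. TEFM, the elongation factor, was at 12.8, 6.59 and 11.8 TPM with the combination and 4.94, 4.49 and 5.75 in control libraries (0.87 ± 0.25 (adjusted p = 0.0267) in limma), FASTKD1 rose (0.76), and POLRMT, the mitochondrial RNA polymerase, fell at 42.1, 52.4 and 43.8 TPM with the combination against 51.3, 58.9 and 59.4 in control libraries (-0.29 ± 0.09 (adjusted p = 0.0415) in limma).

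Of 11 genes for mitochondrial DNA maintenance, 3 rose and 2 fell with the combination, beside 18.4% and 6.7% of all genes. With disulfiram 2 rose and 1 fell, beside 8.73% and 4.52%. POLG, the catalytic subunit of the mitochondrial DNA polymerase, was at 30.1, 32.0 and 31.3 TPM with the combination, 32.8, 32.9 and 30.8 with disulfiram, 25.1, 25.4 and 24.2 with thalidomide and 25.0, 25.8 and 26.6 in control libraries, rising by 0.26 ± 0.07 (adjusted p = 0.0260) and 0.31 ± 0.07 (adjusted p = 0.0187) in limma. TOP1MT, the mitochondrial topoisomerase, was at 16.0, 17.3 and 16.1 TPM with the combination, 16.5, 16.1 and 16.5 with disulfiram, 18.5, 18.4 and 17.7 with thalidomide and 19.5, 22.7 and 21.9 in control libraries, with fold changes of -0.35 ± 0.09 (adjusted p = 0.0154) and -0.36 ± 0.09 (adjusted p = 0.0186) in limma for the combination and for disulfiram. RRM2B, a ribonucleotide reductase subunit induced by p53, rose with the combination (0.85) and with disulfiram (0.58), and with the combination POLG2 rose (0.71) and TK2 fell (-0.54). Of 13 regulators of mitochondrial biogenesis, 11 were tested; SIRT1 rose (0.84) and PPRC1 fell (-0.42) with the combination, and 0 passed with disulfiram. With thalidomide alone no gene of these lists passed in limma. The median fold change with the combination was 0.15 and 0.17 for the assembly lists, 0.13 for the carriers, 0.26 for transcription and RNA handling, 0.06 for DNA maintenance and 0.21 for the regulators, beside 0.20 over all genes tested.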

How the data were processed

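RNA of Huh7 cells was sequenced in 12 libraries, 3 per group. The deposited table holds TPM per gene, computed by the authors; per the submitters' processing notes, HISAT2 2.0, StringTie 1.3.0 and hg38 were used, and neither the annotation nor filters nor strand are stated. The labels' extraction text describes single-cell work on tumour tissue, which goes against the cell line label and a table with 1 column per library, so library preparation is uncertain. TPM keeps no counts, so the read depth behind a value cannot be stated.

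Identifiers were matched to GENCODE 29 (58611 of 58884 Ensembl identifiers). From the deposited TPM, log2(TPM + 1) was fitted for 15352 genes (a TPM of 1 or more in 3 or more libraries), using limma 3.58.1 (R 4.3.3) with its mean-variance trend, all 12 libraries in 1 fit, two-sided tests and Benjamini-Hochberg adjustment at 0.05. The method was tested on simulated data. Alternatives were a pseudocount of 0.1, no filter, a mean TPM of at least 5, median-of-ratios scaling, quantile normalization, the mitochondrial genome left out of the total, only the groups compared, a replicate block, GC correction (a spline with 5 degrees of freedom), the block with GC correction, leaving out each library, and leaving out the second disulfiram and second combination libraries. Sums, shares and GC content are descriptions without a test.

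The members and lists were chosen with earlier results of these data known. Named members are the 13 mitochondrial mRNAs, up to 8 nuclear members with the largest rise and 8 with the largest fall past the threshold per comparison, the isoform groups of COX4, COX6A, COX7A, NDUFA4 and ATP5MC, SDHA to SDHD and ATP5IF1, and up to 4 per further list; others named are counted calls or said to be chosen otherwise. Promoter sequences are from RefSeq (GRCh38.p14), coding and mitochondrial sequences from the GENCODE 29 transcripts.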

Additional observations from a re-analysis of the deposited data

How the results depend on the processing

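Counts of called members moved with the libraries used, as did the share of all genes called. For disulfiram against control the 9 calls (13.2% of all genes) became 16 (16.5%) without the second disulfiram and combination libraries, and 3 to 13 when 1 library was left out (7.64% to 14.3% of all genes). For the combination against control the 28 calls (25.1% of all genes) became 53 (38.1%) without those libraries, and 8 to 47 when 1 library was left out (9.29% to 33.1%). For the combination against thalidomide the 33 calls (32.2% of all genes) became 14 to 47 when 1 library was left out (14.2% to 38.1%). The mitochondrial sum with thalidomide against control differed by -0.068 (log2) as a ratio to the nuclear sum. That ratio averaged 3.40 with the combination, 3.85 with thalidomide and 4.03 in control libraries. The nuclear members with the combination against control differed by 0.067 as a mean of log2(TPM + 1), whereas their summed TPM averaged 26626 and 26623. NDUFV2, called higher for the combination against thalidomide (0.21), had -0.0247 with median-of-ratios scaling, -0.0244 with GC correction and -0.0244 with the block and GC correction; the cause was not tested. Of all alternatives for single genes, 3172 kept direction and side of the threshold, 309 lost the call, 48 gained one and 3 changed sign. Same-numbered libraries deviated together by r of -0.154 to 0.369, and differently numbered ones by -0.299 to 0.229. The highest r was that of the second combination and the second disulfiram library. The labels do not say that a number marks a pair, and the numbers were not taken as pairs in the main fit. With the replicate block 9, 28 and 34 members were called for disulfiram against control, the combination against control and the combination against thalidomide. Of all genes, 11.6%, 23.3% and 30.2% were called in that setting, in the same order. Where leaving out a library left 2 in a group, the spread was pooled over all groups. Depth is unknown, so it could not be set beside any value, and 3 libraries a group limit the precision.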

Other observations

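Other mitochondrial genes were looked at beside the respiratory chain, without a test of the lists and in the main fit alone. Over all genes tested 18.4% rose and 6.7% fell with the combination, and 8.73% rose and 4.52% fell with disulfiram. Of 18 tricarboxylic acid cycle genes, 2 rose and 3 fell with the combination and 1 fell with disulfiram, with median fold changes of 0.06 and -0.05 beside 0.20 and 0.09 over all genes tested. SUCLG1, the alpha subunit shared by both forms of succinyl-CoA ligase, was at 108, 107 and 114 TPM with the combination, 111, 103 and 105 with disulfiram, 134, 158 and 148 with thalidomide and 151, 148 and 143 in control libraries, with fold changes of -0.42 ± 0.07 (adjusted p = 0.00391) and -0.47 ± 0.07 (adjusted p = 0.00223) in limma for the combination and for disulfiram. SUCLA2, the beta subunit of the ATP-forming enzyme, rose with the combination (0.83 ± 0.26 (adjusted p = 0.0398) in limma), at 20.5, 11.7 and 17.6 TPM against 9.72, 8.13 and 8.21 in control libraries. IDH3A rose (0.66), and OGDH (-0.38) and MDH2 (-0.34) fell with the combination.

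Of 14 mitochondrial proteases and chaperones, 2 rose and 3 fell with the combination, beside 18.4% and 6.7% of all genes. With disulfiram 1 rose and 1 fell, beside 8.73% and 4.52%. TRAP1, the mitochondrial HSP90, was at 90.6, 112 and 92.8 TPM with the combination, 95.8, 121 and 109 with disulfiram, 176, 168 and 169.6 with thalidomide and 176, 164 and 170.3 in control libraries, with fold changes of -0.79 ± 0.10 (adjusted p = 0.000624) and -0.65 ± 0.10 (adjusted p = 0.00174) in limma for the combination and for disulfiram. No library with disulfiram overlapped one without it. HTRA2 rose with the combination (0.31) and with disulfiram (0.36). CLPX, the unfolding subunit of the CLPXP protease, rose with the combination (1.00 ± 0.28 (adjusted p = 0.0253) in limma). It was at 36.0, 17.4 and 32.7 TPM with the combination and 14.9, 13.7 and 11.2 in control libraries, the second combination library being nearest to control. LONP1 (-0.38) and DNAJA3 (-0.34) fell with the combination. Of 78 mitochondrial ribosomal proteins, 10 rose and 6 fell with the combination, beside 18.4% and 6.7% of all genes. With disulfiram 1, MRPL24, fell (-0.43 ± 0.09 (adjusted p = 0.0104) in limma), beside 4.52% of all genes. MRPL47 (0.75), MRPL13 (0.69) and MRPL35 (0.59) had the largest rises and MRPL24 (-0.52) the largest fall with the combination. No gene of these lists passed with thalidomide alone in limma.

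All 22 mitochondrial tRNAs were listed at 0 in every library. Over the 12 libraries, the genes whose log2(TPM + 1) followed MT-CO1 most closely were RNF208, CTDSP1, CNTD2, H6PD and BPHL (Pearson's r 0.918 to 0.910), and those that followed NDUFA4L2 were AC009133.2, SAT2, PLA2G12B, SUSD3 and PCOLCE (0.925 to 0.880). The libraries come in 4 treatment groups, which all these genes share, and the correlations are a description over all genes tested.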
